A study of Mus musculus with 6 samples.

Results

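Fibroblast growth factors (FGFs) and the genes that answer to them were examined for open chromatin in neural stem and progenitor cells (NSPCs) with and without a deletion of the Sox2 enhancer cluster SRR2–18. The 32 genes were chosen by name: 12 canonical ligands, 3 endocrine ligands, 3 intracellular FGF homologous factors, 4 receptors, 7 feedback inhibitors and 3 ETS transcription factors. An ATAC-seq interval was assigned to one of them when that gene had the nearest protein-coding transcription start site (TSS) to the strongest summit of the interval, at most 50 kb away. By this rule 176 of 82885 parent intervals and 183 of 107480 deletion intervals belonged to the FGF genes, which is 359 of 190365 in all. Every gene had an interval except Spred3, whose neighbouring interval lay closer to the start of Ggn. The assignment is by distance alone, and an interval near a gene has not been shown to act on it.

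The cells came from mouse embryonic stem cells (ESCs) of the strain 129S1/Cast F1 Hybrid, with 3 cultures of the parent line (Clone 5B, no deletion) and 3 cultures of the ΔSRR2–18 line (Clone 47D, homozygous SRR2-18 deletion). Both lines carry a Sox2-mCherry reporter on the 129 allele, each is 1 clone, and each was differentiated to NSPCs and grown in N2B27 medium with EGF and bFGF, so FGF2 protein was supplied to every culture. The deposited peak lists pool the 3 cultures of a genotype. Each value below is therefore 1 value per genotype without replicate error, the genotypes are set side by side with no test, and the effects of clone and deletion cannot be told apart.

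FGFs are secreted ligands that bind FGF receptors, a family of receptor tyrosine kinases, with heparan sulfate or Klotho proteins as partners. Receptor activation runs through FRS2, GRB2 and RAS to a cascade of MAP kinases, which switches on the ETS factors Etv1, Etv4 and Etv5 and also the Sprouty, Spred and Dusp6 genes, whose products dampen the same signal. In neural development FGFs pattern the forebrain and the midbrain-hindbrain boundary, and in culture FGF2 keeps NSPCs dividing.

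ATAC-seq counts transposase insertions, which fall mostly in accessible DNA. Reads at each summit were recovered from the fold enrichment and p-value that the peak caller gave, and they were divided by the genome-wide mean of the same list, 38.84 reads in the parent list and 19.66 in the deletion list. This quotient is called the level below, and it gives the reads at a summit as a multiple of those at an average position. In bulk cells a lower level can come from fewer cells with the place open or from less opening per cell, which cannot be told apart. The parent list was 1.98 times deeper by this measure, so weak intervals were easier to find in parent NSPCs. The labels could be checked at Sox2, where the parent list had 4 intervals between the guide cut sites and the deletion list had 0. Promoters of all 8 neural stem and progenitor marker genes were open in both lists. Among 20 marker genes of other cell types, 9 promoters were open in the parent list and 12 in the deletion list. Of all protein-coding genes, 61.8% and 65.2% had an open promoter. Epithelial markers went from 1 of 3 to 3 of 3, neuronal ones from 2 to 3 of 4, and mesoderm and endoderm ones from 2 to 3 of 3. Astrocyte markers went from 1 to 0 of 2, and the counts of the other types were equal. The part of other cell types in the values below was not tested.

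The sequences under the strongest intervals of each genotype are shown first, because the motifs in them are counted further on. Each is the mm10 (GRCm38.p6) plus strand within 100 bp of a summit, in lower case, with capitals for every exact match to AP-1 (TGANTCA), SOX (ACAANG), ETS (ACNGGAAG), TEAD (GGAATG), CDX (TTTATNG), HOX-PBX (TGATTNAT), E-box (CAGCTG) or POU (ATTTGCAT) on either strand. None of them overlaps an annotated UTR. The first 4 are the strongest parent-only intervals off the chromosome that holds Fgf1, and they carried 3 E-boxes, 1 SOX, 1 ETS and 1 TEAD match but no AP-1 match.
Fgfr4 +19097 bp, parent-only, chr13:55171637-55171837: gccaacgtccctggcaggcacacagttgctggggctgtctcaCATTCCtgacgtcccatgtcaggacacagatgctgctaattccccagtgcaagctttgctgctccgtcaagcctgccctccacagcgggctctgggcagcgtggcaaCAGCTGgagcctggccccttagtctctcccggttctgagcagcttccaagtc
Fgfr4 +16600 bp, parent-only, chr13:55169140-55169340: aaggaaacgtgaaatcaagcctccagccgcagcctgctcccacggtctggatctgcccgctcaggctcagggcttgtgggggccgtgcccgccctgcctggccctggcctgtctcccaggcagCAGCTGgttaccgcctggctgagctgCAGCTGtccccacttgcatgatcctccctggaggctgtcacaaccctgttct
Spry2 +45246 bp, parent-only, chr14:105851473-105851673: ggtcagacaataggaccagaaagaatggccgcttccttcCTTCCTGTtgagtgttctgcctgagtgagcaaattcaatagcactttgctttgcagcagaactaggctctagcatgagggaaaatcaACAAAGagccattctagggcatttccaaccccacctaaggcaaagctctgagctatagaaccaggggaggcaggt
Fgf14 promoter, parent-only, chr14:124677509-124677709: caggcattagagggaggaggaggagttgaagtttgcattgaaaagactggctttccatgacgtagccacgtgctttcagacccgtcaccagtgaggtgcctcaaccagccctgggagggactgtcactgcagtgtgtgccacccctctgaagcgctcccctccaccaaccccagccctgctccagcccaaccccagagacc

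The 4 strongest deletion-only intervals follow. AP-1 matches stood in those of Spry2 and Fgf7, and the one upstream of Dusp6 held none of the 8 motifs.
Dusp6 upstream, deletion-only, chr10:99237301-99237501: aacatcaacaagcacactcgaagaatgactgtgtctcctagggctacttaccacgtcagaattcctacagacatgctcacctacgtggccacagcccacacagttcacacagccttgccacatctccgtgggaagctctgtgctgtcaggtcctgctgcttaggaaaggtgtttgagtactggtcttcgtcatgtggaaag
Spry2 upstream, deletion-only, chr14:105922964-105923164: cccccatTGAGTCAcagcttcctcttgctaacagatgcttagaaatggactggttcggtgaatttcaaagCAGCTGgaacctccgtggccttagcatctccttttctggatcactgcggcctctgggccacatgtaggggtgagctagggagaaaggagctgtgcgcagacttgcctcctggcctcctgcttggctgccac
Fgf2 intron, deletion-only, chr3:37370482-37370682: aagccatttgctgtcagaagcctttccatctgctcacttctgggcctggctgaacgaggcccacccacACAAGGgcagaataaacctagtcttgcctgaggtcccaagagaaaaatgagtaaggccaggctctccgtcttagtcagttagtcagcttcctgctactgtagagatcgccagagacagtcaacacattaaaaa
Fgf7 upstream, deletion-only, chr2:126031630-126031830: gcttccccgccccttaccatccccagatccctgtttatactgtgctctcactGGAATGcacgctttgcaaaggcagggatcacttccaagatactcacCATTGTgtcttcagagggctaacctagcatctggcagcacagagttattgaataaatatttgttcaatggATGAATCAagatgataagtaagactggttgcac

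The next 4 are places open in both genotypes whose levels differed most, the first pair lower and the second pair higher in ΔSRR2–18 NSPCs, and they were chosen after their values were seen. The Etv5 sequence carries 2 AP-1 matches, and that of Spred2 carries none of the 8 motifs.
Fgfr3 upstream, lower, chr5:33705421-33705621: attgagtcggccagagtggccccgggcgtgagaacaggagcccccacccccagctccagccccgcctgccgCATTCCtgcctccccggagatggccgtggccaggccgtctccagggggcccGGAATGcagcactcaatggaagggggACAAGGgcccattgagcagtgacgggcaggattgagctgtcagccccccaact
Spry1 downstream, lower, chr3:37657081-37657281: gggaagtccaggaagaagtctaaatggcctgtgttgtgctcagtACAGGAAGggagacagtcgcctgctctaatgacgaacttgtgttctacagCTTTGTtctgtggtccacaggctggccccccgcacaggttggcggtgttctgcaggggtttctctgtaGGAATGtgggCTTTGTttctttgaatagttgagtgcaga
Etv5 intron, higher, chr16:22389225-22389425: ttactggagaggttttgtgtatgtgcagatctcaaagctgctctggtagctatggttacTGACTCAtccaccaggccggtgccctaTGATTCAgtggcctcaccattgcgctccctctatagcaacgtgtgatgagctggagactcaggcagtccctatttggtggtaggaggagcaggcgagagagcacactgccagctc
Spred2 intron, higher, chr11:19948058-19948258: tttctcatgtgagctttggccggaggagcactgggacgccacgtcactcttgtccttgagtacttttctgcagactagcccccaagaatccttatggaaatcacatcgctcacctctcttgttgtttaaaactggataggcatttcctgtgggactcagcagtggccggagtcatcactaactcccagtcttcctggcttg

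The promoters of Dusp6 and Fgf7 complete the set, each given as the 250 bases before the RefSeq start on the strand of the gene. That of Dusp6 had the highest parent level of any FGF gene and held none of the 8 motifs. That of Fgf7, the one promoter with an interval in the parent list alone, held 2 SOX matches and 1 CDX match, which 36.3% and 9.81% of all 32851 RefSeq promoters of this length also hold at least once.
Dusp6 promoter, chr10:99262981-99263230, + strand: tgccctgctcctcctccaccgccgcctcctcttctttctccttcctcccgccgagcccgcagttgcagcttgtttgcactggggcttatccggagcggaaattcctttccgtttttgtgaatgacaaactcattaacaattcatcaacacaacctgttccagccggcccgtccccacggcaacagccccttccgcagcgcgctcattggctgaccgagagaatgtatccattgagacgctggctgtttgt
Fgf7 promoter, chr2:126034408-126034657, + strand: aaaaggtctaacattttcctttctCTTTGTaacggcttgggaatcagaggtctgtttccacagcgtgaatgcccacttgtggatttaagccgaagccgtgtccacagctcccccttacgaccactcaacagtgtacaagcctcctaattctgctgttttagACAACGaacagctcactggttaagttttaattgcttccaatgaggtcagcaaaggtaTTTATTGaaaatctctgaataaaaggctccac

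Intervals found in one genotype only were common near the FGF genes, at shares near the background of all genes. In the parent list 84 of 176 FGF intervals (47.7%, 95% Wilson interval 40.5 to 55.1) overlapped no deletion interval, against 52.3% of all parent intervals and 45.0% of those within 50 kb of a protein-coding TSS. In the deletion list 89 of 183 (48.6%, 41.5 to 55.8) overlapped no parent interval, against 63.1% of all and 53.0% within 50 kb. These intervals of shares, like every one below, cover counting error only. The parent-only intervals had a median level of 15.7 and the deletion-only ones 16.2, compared with 12.3 and 14.7 over all intervals of the same kinds. Of the 84 parent-only intervals 9 overlapped the deletion list that the authors made with the looser optimal rule, and of the 89 deletion-only ones 6 overlapped the parent optimal list. Holding both lists to the same evidence at the deletion depth (a −log10 p of at least 50) left 72 of 158 (45.6%) parent-only and 88 of 176 (50.0%) deletion-only. Of all intervals, at any distance from a TSS, 49.6% and 63.9% were. The shares of all intervals within 50 kb were not computed at this limit.

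The balance differed from gene to gene. Fgf1 and Etv5 had at least 5 more parent-only than deletion-only intervals, which is 2 of 31 FGF genes with an interval, against 2.13% of all 17643 genes with one. Fgf5, Fgf10 and Dusp6 had at least 5 more deletion-only than parent-only intervals, which is 3 of 31 against 5.57%. The background genes were not matched for their number of intervals, and a gene with more intervals can reach such a net more easily. Within 10 kb of a TSS the net count was 0 at Fgf5, Fgf10, Dusp6 and Etv5 and −1 at Fgf1, so these balances lie in the intervals farther out. Fgf10 also went to a net of 1 at an IDR score of at least 830 and to 0 with lists of equal length, where Dusp6 went from 6 to 2, and Fgf1 went from −5 to −2 under the same −log10 p limit for both lists as above. Fgf7 was the single gene, of 22 FGF genes with 3 or more intervals in each list, at which no interval was shared, and 0.806% of all such genes were like it.

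**Figure D1:**
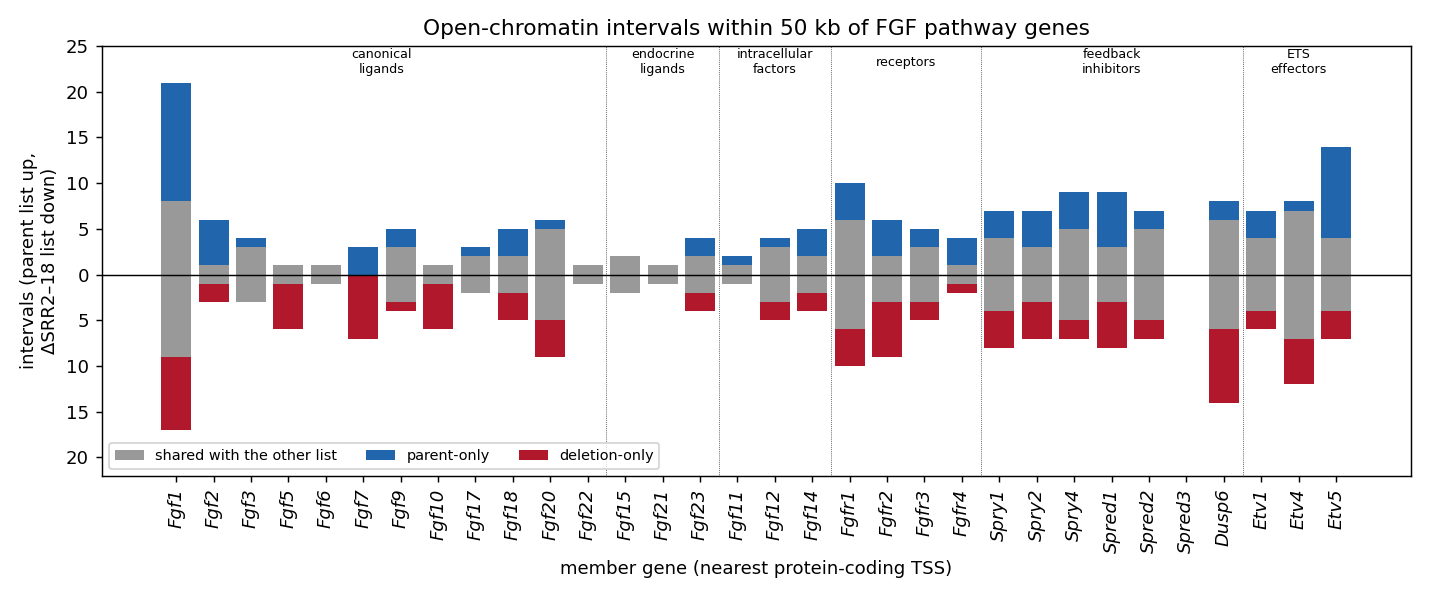
Intervals assigned to each of the 32 FGF genes (x axis, grouped by role), counted upward for the parent list and downward for the ΔSRR2–18 list, with grey for intervals shared between the lists and colour for those of one genotype. Fgf1 (13 parent-only) and Etv5 (10) reach farthest up in blue, Dusp6 and Fgf1 (8 deletion-only each) and Fgf7 (7) reach farthest down in red, and Fgf7 has no grey.

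Most FGF gene promoters were open in both genotypes. An interval lay within 1 kb of a TSS for 28 of 32 genes (87.5%) in parent NSPCs and 29 of 32 (90.6%) in ΔSRR2–18 NSPCs, where 61.8% and 65.2% of all protein-coding genes had one. Both lists held 27 of these promoters, Fgf7 was held by the parent list alone, Fgf23 and Fgfr4 by the deletion list alone, and Fgf6 and Fgf17 by neither. The single-list promoters were all weak. The Fgf7 promoter had a parent level of 8.60, and the deletion optimal list held it at 14.75. The Fgf23 promoter had a deletion level of 14.5 and stood in the parent optimal list at 6.02. Fgfr4 had a level of 13.2 at its promoter in the deletion list and no interval there in either parent list.

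At 24 promoters the strongest intervals of the 2 lists overlapped, though their highest summits lay 704 bp apart at Spred1 and 174 bp apart at Spry4. The level was lower in ΔSRR2–18 NSPCs at 17 of them and higher at 7, with a median deletion-to-parent ratio of 0.696. Shared loci within 1 kb of any protein-coding TSS had a median ratio of 0.724 genome-wide, so the FGF promoters lay close to promoters in general. The 3 highest promoter levels belonged to Etv5, Dusp6 and Spry2 in both lists. Etv5 had a level of 190.4 in parent and 192.0 in ΔSRR2–18 NSPCs, which placed it in the top 0.584% and 0.226% of each list. Dusp6 had 190.7 and 139.9, and Spry2 had 164.8 and 134.1. Etv4, at 92.2 and 105.8, and Fgf18, at 75.4 and 86.5, were among the few with the higher value after deletion.

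At 3 of the 4 receptor genes the promoter level was lower after deletion, where 0.724 was the median ratio of shared loci at all promoters. Fgfr1, a receptor of neural progenitors, had a level of 116.0 in parent and 77.9 in ΔSRR2–18 NSPCs (ratio 0.672), and Fgfr2 had 113.2 and 64.4 at its own promoter (ratio 0.568). The promoter of Fgfr4 was the exception, with an interval in the deletion list alone. Fgfr3 had 95.9 and 29.8, a ratio of 0.31 that was the lowest among the strongest intervals of the 24 promoters. The highest ratios belonged to promoters near the bottom of the lists, 2.02 for Fgf22 (6.26 to 12.6) and 1.99 for Fgf3 (9.27 to 18.5). Among the other ligands Fgf20 went from 113.8 to 57.6, in an interval whose summit also lay in a UTR of Micu3. A deletion-only interval of level 5.85 lay 266 bp from the other Fgf20 start. Fgf5 went from 61.7 to 31.4, Fgf9 from 54.9 to 33.9, Fgf15 from 54.9 to 39.5 and Fgf2 from 30.9 to 26.3. Fgf21 went from 28.3 to 15.0 and Fgf10 from 9.32 to 12.1. Of the intracellular factors Fgf11 went from 72.5 to 31.1 and Fgf12 from 56.7 to 42.2. A weaker shared interval at another Fgf12 start went from 53.2 to 15.4, a lower ratio of 0.29. In the remaining feedback and ETS genes the levels were 75.9 and 40.2 at Spry1, 87.3 and 47.6 at Spry4, 79.7 and 39.1 at Spred1, and 92.8 and 60.5 at Etv1. The interval over the Spred3 promoter, nearest to Ggn, had 101.1 and 106.0. At Fgf1, Fgf14 and Spred2, which have several starts, the strongest promoter interval lay at a different place in each list, with levels of 86.8 and 27.3 at Fgf1, 69.0 and 11.8 at Fgf14 and 81.5 and 45.9 at Spred2.

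**Figure D2:**
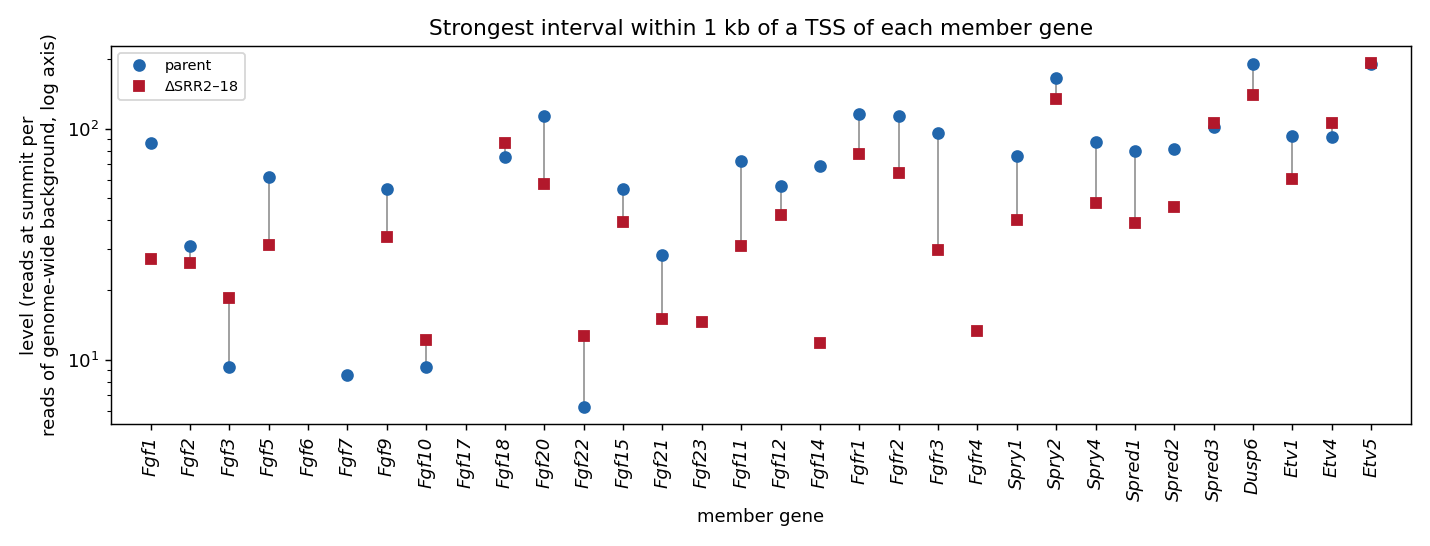
Level of the strongest interval within 1 kb of a TSS of each FGF gene (y axis, log scale, reads at the summit per reads of the genome-wide background). Blue circles are parent and red squares ΔSRR2–18 NSPCs, with a grey line where the intervals of both overlap. Most red squares sit below their blue circle, with Fgf3, Fgf22, Fgf10, Fgf18, Spred3, Etv4 and Etv5 as the exceptions among joined pairs.

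The canonical ligands act on neighbouring cells through the receptors. Of their intervals, 29 of 57 in the parent list (50.9%) and 35 of 64 in the deletion list (54.7%) were found in one genotype only. Of all intervals 52.3% and 63.1% were, and 45.0% and 53.0% of those within 50 kb of a protein-coding TSS. Fgf1, a ligand that binds all FGF receptors, had by far the most intervals, 21 in the parent and 17 in the deletion list, of which 13 and 8 were specific. Its strongest parent-only interval had a level of 96.9 and lay 46337 bp downstream of the start, in an intron of Arhgap26. The next, with a level of 86.8, covered a start site of Fgf1 itself, and the deletion optimal list held that place at a level of 4.38. Another strong one, at 50.1, lay 14624 bp upstream. The 8 deletion-only intervals of Fgf1 were weaker, with the highest at 37.2.

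Fgf5, Fgf7 and Fgf10 showed the opposite balance. Fgf5, a regulator of the hair cycle, had 1 parent interval, at its promoter, and 6 deletion intervals. Its 5 deletion-only intervals had levels of 46.3 at 33231 bp upstream and of 36.0, 14.8, 30.0 and 37.3 between 27841 and 36400 bp downstream, all intergenic. Fgf10, a ligand of lung and limb development, likewise had 1 parent interval and 6 deletion intervals. All 5 deletion-only ones lay in its introns, the strongest with a level of 43.2 at 22092 bp downstream and the others between 5.90 and 10.2. Counted from gene starts at the 5′ end alone, Fgf10 no longer showed an excess (net 0 intervals, against 5).

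Fgf7, also called keratinocyte growth factor, had 3 parent-only and 7 deletion-only intervals and none in common. One deletion-only interval stood out, with a level of 68.3 at 2928 bp upstream of the start (chr2:126031136-126032040), in an intron of Fam227b. It carried an AP-1, a SOX, a TEAD and a HOX-PBX match. The other 6 had levels from 7.53 to 25.4, and the 3 parent-only intervals had levels from 5.64 to 9.35, so the parent list held nothing strong at this gene. At the looser optimal threshold the Fgf7 promoter was open in both genotypes.

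Fgf2, the factor supplied in the medium, had 5 parent-only and 2 deletion-only intervals. The deletion-only ones were both intronic, with levels of 68.6 (chr3:37370075-37370957) and 24.6, while the strongest parent-only interval reached 33.6. With the optimal lists the balance turned, to 1 more deletion-only than parent-only interval. Fgf18, which acts in bone and brain, had 3 specific intervals in each list, with parent-only levels up to 58.5 at 41776 bp and deletion-only levels up to 51.9 at 23903 bp downstream. Fgf20 had 1 parent-only and 4 deletion-only intervals, the latter with levels up to 10.5. Fgf9 had 2 and 1, Fgf3 had 1 and 0, and Fgf17 had 1 and 0. Fgf6 and Fgf22 had 1 interval in each list, shared.

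The endocrine ligands, which travel in blood and need Klotho co-receptors, had few intervals. Fgf15, the mouse counterpart of human FGF19, had 2 in each list, and Fgf21, a metabolic hormone, had 1, all of them shared. Fgf23, which controls phosphate, had 2 parent-only and 2 deletion-only intervals, and the stronger deletion-only one had a level of 59.9 at 15430 bp upstream (chr6:127057023-127057786). The intracellular factors Fgf11, Fgf12 and Fgf14 are not secreted and bind voltage-gated sodium channels. They had 5 parent-only of 11 and 4 deletion-only of 10 intervals. The strongest of these were at Fgf14, with parent-only levels of 69.0 at 482 bp upstream of a start (chr14:124677317-124677807) and of 50.3 at 1893 bp downstream of it. A shared interval 7158 bp into the same gene went from 51.6 to 12.2, so each of these 3 places at Fgf14 was lower in the deletion list or missing from it.

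Among the receptors, 13 of 25 parent intervals (52.0%) and 13 of 26 deletion intervals (50.0%) were specific. The shares were 45.0% and 53.0% over all intervals within 50 kb of a protein-coding TSS. The highest parent-only level of all FGF genes, 180.1 (6997 reads at the summit), lay 19097 bp downstream of the Fgfr4 start (chr13:55171457-55172233, intergenic), in the top 0.852% of the parent list. The second highest, 137.4, lay 16600 bp downstream of the same start (chr13:55168882-55169571). The deletion list held neither. The deletion optimal list held the first place at a level of 4.02. No interval of either deletion list overlapped the second. Neither site held an AP-1 or SOX match, and they held 1 and 2 E-boxes.

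Fgfr1 had 10 intervals in each list and 4 specific to each. An intronic interval 12000 bp from a start (chr8:25544029-25544448) had a level of 58.8 and stood in the parent list alone. Its neighbour 12777 bp from the start was shared, with levels of 114.0 in parent and 29.7 in ΔSRR2–18 NSPCs, and the interval on the other side, 11353 bp from the start, had 62.8 and 25.5. A shared intronic interval nearer the start, at 5069 bp, had 120.9 and 95.3. A deletion-only interval of level 50.5 lay 3018 bp from the start. Fgfr2 had 4 parent-only intervals with levels up to 15.4 and 6 deletion-only ones with levels up to 42.2. Fgfr3 had 2 of each, and its shared intervals differed most, as described with the shared loci.

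The feedback inhibitors had 21 parent-only of 47 intervals (44.7%) and 25 deletion-only of 51 (49.0%), against 45.0% and 53.0% of all within 50 kb of a protein-coding TSS. Dusp6, which encodes a MAP kinase phosphatase, went from 8 intervals to 14, with 2 parent-only and 8 deletion-only. The strongest deletion-only interval of any FGF gene lay 25830 bp upstream of it (chr10:99236911-99237733), in an exon of the long noncoding RNA Gm48884, with a level of 97.1 and 1909 reads at the summit. Upstream of the start, 4 more deletion-only intervals had levels of 52.0, 30.2, 27.7 and 8.70, at 21049, 12276, 15272 and 33786 bp, and a shared one went from 5.77 to 24.3. The first of these stood in the parent optimal list at 4.69. Downstream, a deletion-only interval at 34620 bp had a level of 55.7. The shared intervals next to the promoter had the reverse order. At 1331 bp upstream the level was 103.5 in parent and 41.7 in ΔSRR2–18 NSPCs. Downstream it was 82.3 and 22.3, at summits 510 bp apart (6270 and 5760 bp from the start).

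Sprouty genes, whose products block signalling downstream of the receptor, had intervals specific to each genotype. Spry2 had 4 specific intervals in each list. The strongest parent-only one had a level of 85.0 at 45246 bp downstream (chr14:105851045-105852049), with a SOX and an ETS match, and the strongest deletion-only one a level of 89.4 at 26245 bp upstream (chr14:105922310-105923326), with an AP-1 match. Spry1 had 3 parent-only intervals with levels up to 32.3 and 4 deletion-only ones with levels up to 28.9. Spry4 had 4 parent-only intervals with levels up to 20.3 and 2 deletion-only ones of 16.3 and 42.6. The Spred genes, which restrain RAF, had 6 parent-only and 5 deletion-only intervals at Spred1 and 2 of each at Spred2.

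The ETS effectors are the transcription factors that FGF signalling switches on, and they had 14 parent-only of 29 and 10 deletion-only of 25 intervals. Etv5 had 10 parent-only intervals against 3 deletion-only. Of the 10, 7 lay in its introns, between 6089 and 39872 bp from the start, with levels from 7.31 to 40.7. The strongest deletion-only interval, with a level of 63.7, lay 1766 bp from the start, and the parent optimal list held that place at 20.9. Etv4 had 1 parent-only and 5 deletion-only intervals, and 3 of the latter had levels of 64.4 at 22085 bp upstream (chr11:101807028-101807794), 51.1 at 44987 bp upstream and 45.6 at 16495 bp downstream. Each of these 3 carried an AP-1 match. Etv1 had 3 parent-only and 2 deletion-only intervals, none above 19.9.

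**Figure D3:**
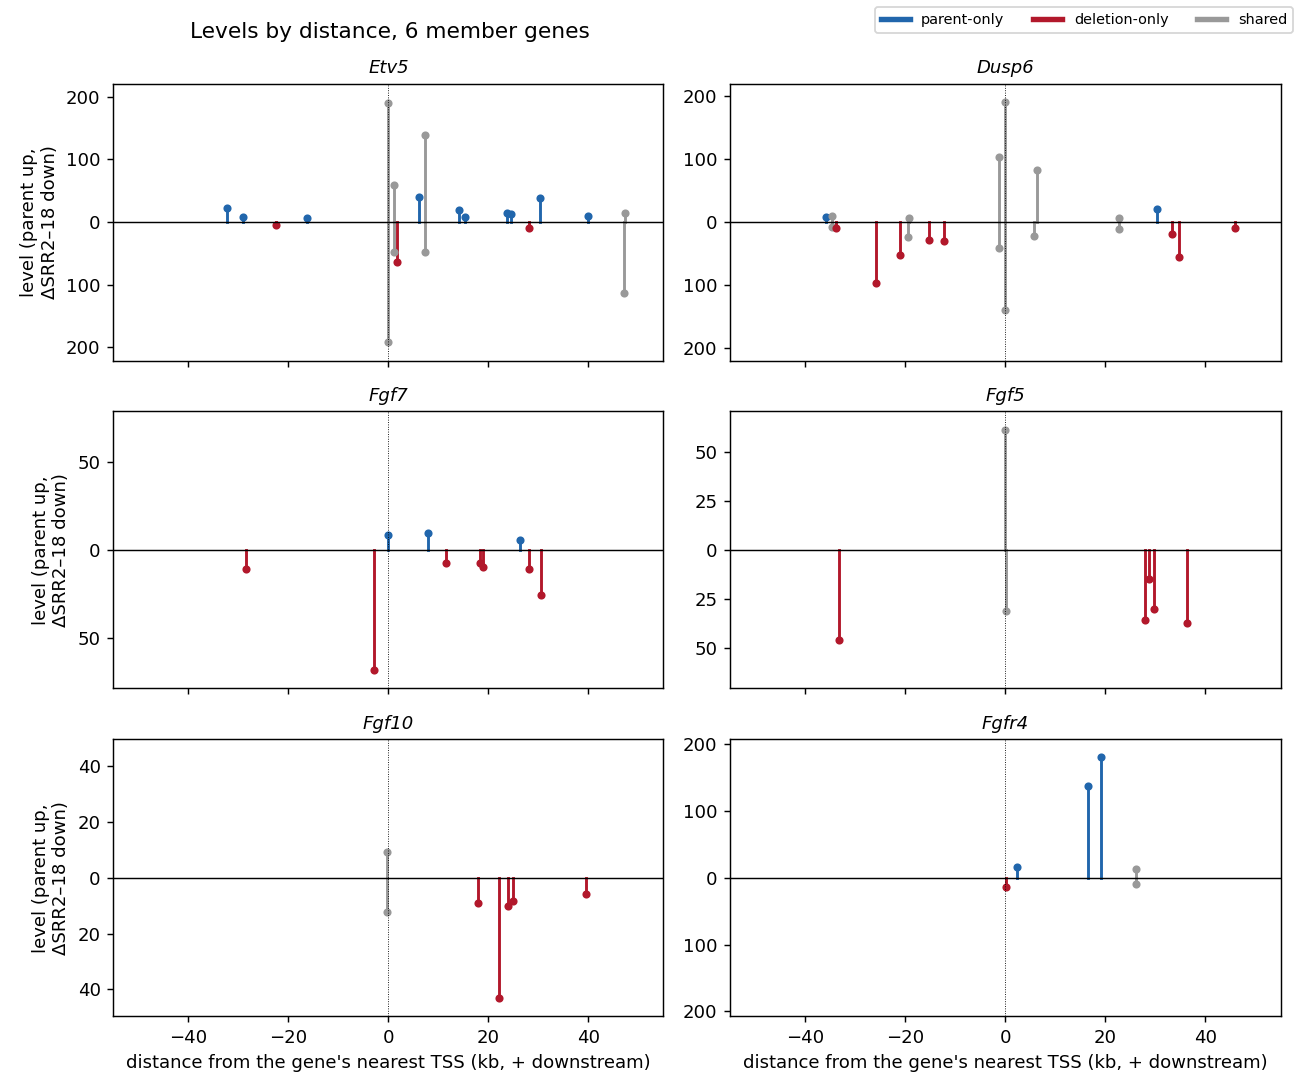
Level of each interval (y axis, parent upward and ΔSRR2–18 downward) against its distance from the nearest TSS of the gene (x axis, kb, positive downstream) for Etv5, Dusp6, Fgf7, Fgf5, Fgf10 and Fgfr4, with grey for shared and colour for genotype-specific intervals. Etv5 has blue intervals along the gene body, Dusp6, Fgf5 and Fgf10 have red ones away from the promoter, and Fgfr4 has the tall parent-only pair of 137.4 and 180.1.

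Places open in both genotypes carried a comparison of levels. The 92 shared loci of the FGF genes had a median deletion-to-parent ratio of 0.736, against 0.848 over all 39072 shared loci, and 57 of the 92 lay below the latter value. A locus was counted as lower or higher when its ratio was at least 2-fold from 0.848. By that count 16 of the 92 were lower (17.4%, against 11.3% of all shared loci) and 9 were higher (9.78%, against 19.2%). When the caller's fold enrichment over local background replaced the level, 4 of the 92 were lower (4.35%, against 7.38% of all shared loci) and 6 were higher (6.52%, against 10.1%), and the median log2 ratio went from −0.44 to −0.05. The excess of lower loci over the background was therefore seen with summit reads and not with enrichment over the local background. Away from promoters, the 65 FGF loci over 1 kb from a TSS had a median ratio of summit reads of 0.788, against 0.996 for all 26609 such loci. These 2 medians are not given for fold enrichment, by which the median log2 ratio was −0.05 over the 92 loci and 0.0004 over all shared loci.

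The strongest summits of the 2 lists lay within 100 bp of each other at 72 of the 92 loci, and at the others the ratio compares places farther apart. Among the loci named below, the summits lay 114 bp apart at the lower Spry1 locus, 126 bp at the Dusp6 one upstream, 165 and 290 bp at the Fgf1 pair, 228 bp at Spred2 and 346 bp at Fgf6.

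By role, the median ratio was 0.532 over 12 receptor loci, 0.566 over 6 loci of intracellular factors, 0.645 over 26 of feedback inhibitors, 0.799 over 28 of canonical ligands, 1.01 over 15 of ETS effectors and 1.18 over 5 of endocrine ligands. By summit reads none of the 12 receptor loci was called higher and 4 were called lower, where 19.2% and 11.3% of all shared loci were. By fold enrichment over local background only 4 of the 92 FGF loci were called lower, and those calls are not given by role. The lowest ratio of all stood 16203 bp upstream of Fgfr3 (chr5:33705010-33705964), where the level was 151.9 in parent and 15.3 in ΔSRR2–18 NSPCs. The ratio was 0.1005, with an exact binomial interval of 0.0892 to 0.113, and lay 8.44-fold below the median of all shared loci. The Fgfr3 promoter and the receptor Fgfr1 at 12777 bp were lower too, by 2.73-fold and 3.26-fold on this scale.

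The other loci at the low end belonged to Spry1, Fgf1 and Fgf14. At 17101 bp downstream of Spry1 (chr3:37656923-37657493) the level was 86.4 in parent and 11.8 in ΔSRR2–18 NSPCs, with a ratio of 0.137 (0.119 to 0.156). The pair at Fgf1 had 71.2 and 15.9 at 2711 bp and 85.1 and 20.4 at 10723 bp from a start, ratios of 0.224 and 0.239. Fold enrichment over local background differed less at this pair, with 16.5 and 12.5 at 2711 bp and 10.0 and 7.76 at 10723 bp. The one at Fgf14 had 51.6 and 12.2, a ratio of 0.236.

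The high end was led by Etv5. In its intron 47220 bp from the start (chr16:22389040-22389701) the level was 15.0 in parent and 112.6 in ΔSRR2–18 NSPCs, a ratio of 7.49 (6.83 to 8.22). This was the site with 2 AP-1 matches. The same gene had a locus 7373 bp from the start with the reverse order of levels, 139.0 in parent and 47.4 in ΔSRR2–18 NSPCs. Fold enrichment over local background at that locus was 13.3 in parent and 17.0 in ΔSRR2–18 NSPCs, so the order depended on the measure. Spred2 followed with 5.59 and 31.3 in an intron at 23488 bp (chr11:19947544-19948460), a ratio of 5.60 (4.79 to 6.57). The Dusp6 locus 19293 bp upstream had a ratio of 4.22 (3.59 to 4.96). At 14070 bp downstream of Spry1, the level was 17.3 in parent and 53.1 in ΔSRR2–18 NSPCs, a ratio of 3.07 (2.79 to 3.39). At 33967 bp upstream of Fgf6 the levels were 7.29 and 21.6, a ratio of 2.96 (2.54 to 3.45).

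**Figure D4:**
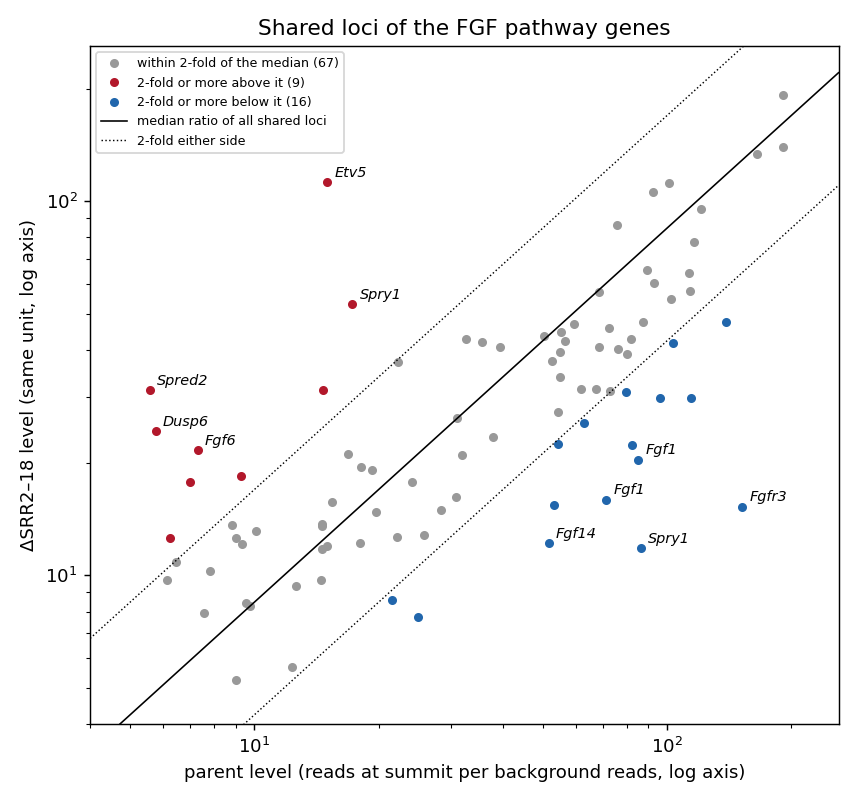
Level in ΔSRR2–18 NSPCs (y axis) against level in parent NSPCs (x axis), both log scales, for the 92 shared loci of the FGF genes, with the solid line at the median ratio of all shared loci (0.848) and dotted lines 2-fold either side. The 16 blue points below the lower dotted line reach to the Fgfr3 locus at 151.9 and 15.3, and the 9 red points above the upper one reach to the Etv5 locus at 15.0 and 112.6.

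The motifs near the summits of specific intervals differed between the genotypes. An AP-1 match, the site bound by FOS and JUN proteins that growth factor signalling induces, stood in 38 of 89 deletion-only intervals (42.7%, 32.9 to 53.1), against 50.7% of all deletion-only intervals and 7.87% of windows 500 bp to the side. It stood in 5 of 84 parent-only intervals (5.95%, 2.57 to 13.2), against 4.59% of all of them. The FGF genes thus had the same pattern as the whole lists. By role the AP-1 match was in 15 of 35 deletion-only intervals of canonical ligands, 5 of 13 of receptors, 11 of 25 of feedback inhibitors, 5 of 10 of ETS effectors, 2 of 4 of intracellular factors and 0 of 2 of endocrine ligands.

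A SOX match was in 39 of 84 parent-only intervals (46.4%, 36.2 to 57.0, with 47.9% over all) and in 30 of 89 deletion-only ones (33.7%, 24.7 to 44.0, with 35.5% over all), and the flanks held it in 39.3% and 38.8%. An ETS match, the element that Etv1, Etv4 and Etv5 proteins recognise, was rare. The parent-only intervals held it 3 times in 84 (3.57%, with 4.97% over all), and the deletion-only intervals 7 times in 89 (7.87%, with 5.77% over all). E-box matches were in 21 of 84 (25.0%) and 14 of 89 (15.7%), against 28.8% and 15.4% over all, with 11.9% and 8.99% in the flanks. The POU octamer was in 2 of 84 and 0 of 89, against 3.12% and 1.23% over all. Among shared loci, where both genotypes were open, 9 of 94 deletion intervals (9.57%, with 16.1% over all) and 5 of 92 parent intervals (5.43%, with 10.2% over all) had an AP-1 match. Of the 9 shared loci called higher in ΔSRR2–18 NSPCs, the Etv5 one alone had it.

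**Figure D5:**
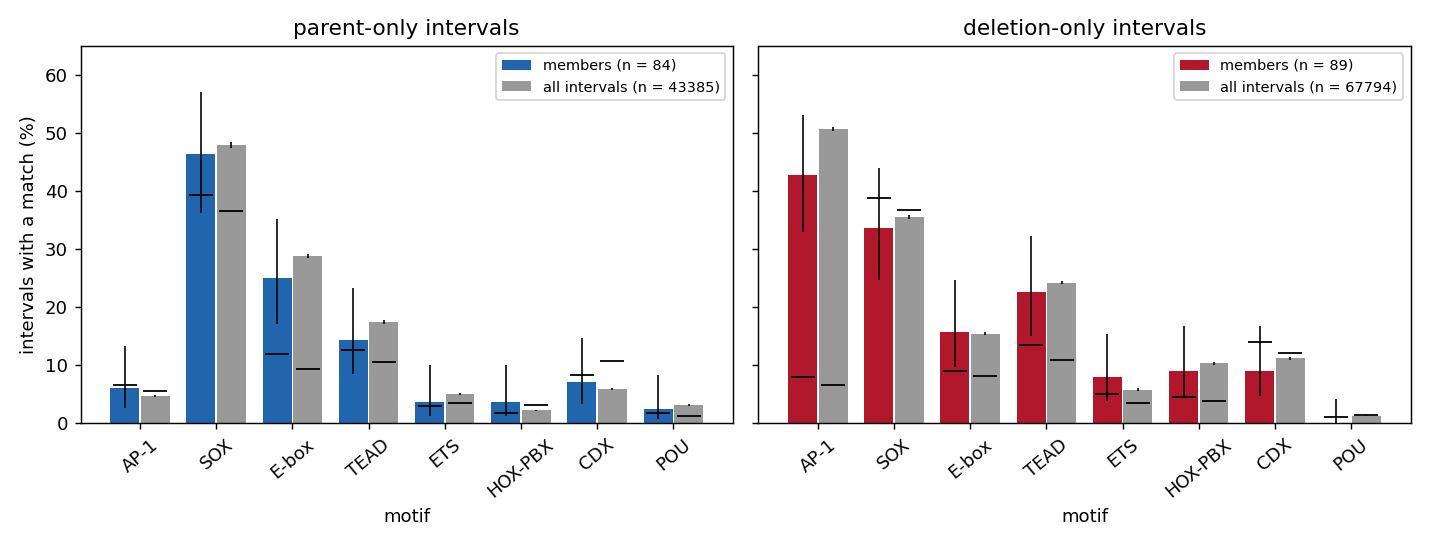
Share of parent-only intervals (left) and deletion-only intervals (right) with an exact match to each motif (x axis) within 100 bp of the summit (y axis, percent), with coloured bars for the FGF genes, grey bars for all intervals of the same kind, error bars for 95% Wilson intervals and black dashes for windows 500 bp away. The AP-1 bar is 5.95% on the left and 42.7% on the right for the FGF genes, and each coloured bar is near its grey neighbour.

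Further genes around the pathway were taken from lists of modulators, responsive genes and the EGF family, counted within 50 kb as above. Of all intervals within 50 kb of a protein-coding TSS 45.0% were parent-only and 53.0% deletion-only. At any distance these shares were 52.3% and 63.1%. Co-receptors and modulators had 29 parent-only of 53 intervals (54.7%) and 39 deletion-only of 62 (62.9%), with Flrt2, a membrane protein that binds FGF receptors, at 3 parent-only and 12 deletion-only intervals and its relative Flrt1 at 11 and 5. Klotho (Kl), the co-receptor of Fgf23, had 4 parent-only and 4 deletion-only intervals and none shared, and its promoter was open in the deletion list alone. Other genes that respond to MAP kinase signalling had 11 of 29 (37.9%) and 21 of 41 (51.2%), with the phosphatase gene Dusp5 at 3 and 8 and the early response gene Egr1 at 5 and 2. The EGF family, the second growth factor pathway fed by the medium, had the highest shares of these lists, 34 of 54 (63.0%) and 48 of 69 (69.6%), with Egfr at 5 parent-only and 11 deletion-only intervals and the receptor gene Erbb4 at 3 and 0. The genes named here were chosen after their values were seen.

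The distance limit of 50 kb leaves out much of the surroundings of some genes. Just inside it stood a parent interval of Fgf18 at 48764 bp with a level of 7.0 and a deletion interval of Spred1 at 47614 bp with a level of 6.1. Just outside it stood intervals of Fgfr2, at 50219 bp in the parent list with a level of 50.8 and at 50239 bp in the deletion list with a level of 29.7. Beyond the limit an FGF gene was the nearest for a further 155 parent and 201 deletion intervals.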

How the data were processed

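Open chromatin was assayed by the authors in 3 parent and 3 ΔSRR2–18 NSPC cultures (30000 cells and 50 to 60 M paired-end reads each, per the labels). The study used the ENCODE ATAC-seq pipeline with MACS2 and merged cultures by IDR, and the labels name deepTools and mm10. The 4 deposited lists, a conservative and an optimal one per genotype, hold for each peak the authors' IDR score, the fold enrichment (a ratio to local background), the −log10 p and a summit offset, all from pooled reads. Repeated intervals were counted once, and the conservative lists were used, as in the study.

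Summit reads and local background were found by solving the caller's Poisson model for the deposited fold and −log10 p. They came out whole, within 0.05, for 99.9993% of parent and 100.0% of deletion peaks. Levels are the highest summit reads of an interval over the lowest background of its list. Overlap of 1 bp made intervals shared, and overlapping intervals of both lists made a shared locus. TSSs were all starts of protein-coding genes in GENCODE M21 basic. Sequence came from GRCm38.p6, and promoters of 25 of the 32 genes were matched in RefSeq by symbol. Shares carry 95% Wilson intervals, and ratios carry 95% exact binomial intervals from the reads. Pileup reads share fragments, so both cover counting error at best. One allele of each pair is castaneus, whose reads can align less well to mm10, and alleles were not separated.

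Named in the text are all 32 genes, the intervals at their promoters, the 10 strongest specific intervals per genotype and the 5 highest and 5 lowest shared loci, and further intervals were named after their values were seen. The members and lists were chosen with earlier results of these data known. Alternatives were the optimal lists, an IDR score of at least 830, 10 kb, gene 5′ ends, 50% reciprocal overlap, absence from both lists, a −log10 p of at least 50 with parent values rescaled to the deletion depth, lists of equal length, a 2.5 kb promoter, other scalings, a 50 bp motif window and distal intervals. One list of pathway genes is not reported here. Read recovery, overlaps, nearest starts and the motif scan were tested on simulated data. Python 3.11.15, pandas 2.3.3, NumPy 2.4.6, SciPy 1.17.1 and matplotlib 3.10.9 were used.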

Additional observations from a re-analysis of the deposited data

How the results depend on the processing

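No paired analysis was possible because each list pools the 3 cultures of a genotype, and for the same reason no culture could be left out. Of 51 recomputed counts, shares and medians, 40 stayed within 1.5 times the value given or moved by less than its interval. Of the rest, a gene distance of 10 kb left 78 parent and 69 deletion intervals, 28 and 17 of them specific. Fold enrichment in place of the level left 4 shared loci called lower, and the optimal lists gave 16 called higher. A motif window of 50 bp on each side lowered the shares to 1.19% for AP-1, 26.2% for SOX and 1.19% for ETS in parent-only intervals and to 28.1% for AP-1 and 21.3% for SOX in deletion-only intervals. With lists of equal length by fold enrichment, 108 parent-only and 64 deletion-only intervals were counted, so that the larger number changed genotype. The net balance turned at 2 genes, to 1 more deletion-only interval at Fgf2 with the optimal lists (−3 otherwise) and to −1 at Fgf7 within 10 kb (4 otherwise). A further 20 net counts at the 8 genes followed moved by at least 2 intervals, 6 of them at 10 kb, where Fgf5, Fgf10, Dusp6, Etv4 and Etv5 came to 0. The causes were not tested beyond what each setting removes. The deletion list has the lower background count. The −log10 p limit at the deletion depth took parent-only intervals from 84 to 72 and deletion-only ones from 89 to 88. Whether depth is the main limit on weak intervals was not tested.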
